A study of Homo sapiens with 6 samples.

Results

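The glycolysis and hypoxia response genes described here are 34 protein-coding genes, chosen by name for their known roles and found in the deposited table by their Ensembl identifiers, 34 of 57445 genes in all. They comprise 2 glucose transporters, 9 enzymes of the upper steps of glycolysis, 2 PFK-2 enzymes, 6 enzymes of the lower steps, 5 genes that handle pyruvate and lactate, 2 HIF alpha subunits and 8 targets of hypoxia signaling. RNA-Seq was done on MDA-MB231 cells, an established triple-negative breast cancer line, with 3 libraries of a control (shCTL) and 3 libraries of a stable knockdown of the Wnt receptor Ror1 (shRor1). Both conditions carried a lentiviral pGIPZ vector and were kept under puromycin selection, so the 2 groups share the vector backbone and the drug. The labels call the control an empty vector and the RNA polyadenylated, whereas the methods of the study name a non-silencing shRNA and a total RNA kit, and the headers of the control columns also contain the word DMSO, which no label explains. Each condition rests on 1 shRNA vector. The labels do not say whether the 3 libraries of a condition came from separate cultures, so p-values measure only the spread between these libraries, which may be technical.

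Glycolysis splits glucose into pyruvate, which is either passed to the mitochondria or turned into lactate and exported. When oxygen is scarce, the HIF transcription factors, made of an oxygen-sensitive alpha subunit and the stable partner ARNT, bind a short DNA word with the core ACGTG or GCGTG and raise the transcription of glucose transporters, glycolytic enzymes and genes for pH control, vessel growth and mitochondrial turnover. With oxygen present, the EGLN prolyl hydroxylases mark the alpha subunits, and VHL directs them to degradation, so the mRNA of an alpha subunit does not tell how much protein is present. Many cancer cells keep glycolysis high in air as well.

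The HIF core word was not itself used to choose the genes. The choice did use known roles in glycolysis and hypoxia signaling, so counts of the word are not independent of it. RefSeq promoters (GRCh38.p14) were at hand for 30 of the 34 genes, with 57 start sites in all, since several genes have more than 1 annotated start and neighbouring windows of a gene can overlap. In the 250 bases upstream of the start, ACGTG was found on either strand in 20 of the 57 windows, or 35.1%, compared with 18.5% of the 35116 promoter windows of all genes. GCGTG was found in 19 of 57 windows (33.3%) and in 32.2% of all windows. At least 1 of these 2 words was found in 33 of 57 windows (57.9%) and in 43.2% of all windows. A match of 5 bases is a description of the letters and not a binding site. SLC2A3, SLC16A1, NDRG1 and VEGFA had no entry. BNIP3, ENO2 and PGK1 were picked because they reached an unadjusted limma p below 0.05 without the first shRor1 library. CA9 was added by choice. CA12 and PFKFB4 also reached that limit and have a single annotated start, but hold no ACGTG and were left out. Stretches of 4 promoters are thus shown, each from a gene with a single annotated start, and an ACGTG match was a condition for showing them. They are written 5′ to 3′ on the strand of the gene, with ACGTG or its reverse complement CACGT in capitals:
CA9, chr9:35673882-35673927, plus strand: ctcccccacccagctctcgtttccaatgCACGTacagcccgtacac
BNIP3, chr10:131982024-131982084, minus strand: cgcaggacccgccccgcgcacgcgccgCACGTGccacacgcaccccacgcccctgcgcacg
ENO2, chr12:6914434-6914494, plus strand: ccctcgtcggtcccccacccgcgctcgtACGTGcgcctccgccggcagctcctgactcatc
PGK1, chrX:78104037-78104097, plus strand: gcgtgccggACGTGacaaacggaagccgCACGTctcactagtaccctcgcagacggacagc
In BNIP3 the capitals are CACGTG, which holds the core on both strands, so its 2 matches overlap. In PGK1 the 2 matches are apart and lie on opposite strands. The match of CA9 ends 13 bases before the start site, that of ENO2 113 bases before it.

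The values are TPM, the abundance of a transcript relative to all transcripts of a library with gene length taken into account, so levels can be compared between genes. Sequencing depth is not kept in TPM. The study lists the mapped reads of each library, but the columns cannot be tied to its replicates, so no counting interval is given. Between 16036 and 17033 genes reached 1 TPM in a library. Mitochondrially encoded mRNA took 6.72%, 7.56% and 8.16% of the TPM in the shCTL libraries and 6.52%, 8.24% and 8.61% in the shRor1 libraries. The libraries are numbered by their place within a condition, since the columns carry no replicate number. The labels do not say whether a library of 1 condition is paired with a library of the other, and no pairing was used. The mesenchymal markers VIM (2399 to 2920 TPM) and CD44 (359 to 534 TPM) were high, while ESR1 stayed at 0.21 TPM or below and PGR at 0.01 TPM or below, and ERBB2 had 26.6 to 34.9 TPM. Of the epithelial markers, EPCAM had 12.6 to 15.8 TPM and CDH1 0.80 to 1.47 TPM, and the fibroblast marker COL1A1 had 7.25 to 13.9 TPM. The markers of leukocytes (PTPRC, at most 0.39 TPM) and liver (ALB, at most 0.21 TPM) were near 0. ROR1, the target of the shRNA, had 15.4, 13.5 and 20.6 TPM in shCTL and 9.34, 11.9 and 14.9 TPM in shRor1. The mean level was 73.01% of the control, the groups overlapped, and the log2 fold change of -0.43 (SE 0.20) did not pass the test, with an adjusted p of 0.984 by limma. These values are mRNA, whereas the study presents its knockdown with a western blot of Ror1 protein. Over all genes tested, the first shRor1 library lay closest to the first shCTL library (median absolute log2 difference 0.0951). Its distances to the other shRor1 libraries were 0.173 and 0.197. The second shRor1 library likewise lay closest to the second shCTL library (0.1405), and the third to the third (0.1343). The second and the third shRor1 library were 0.1824 apart. Whether libraries at the same place share a batch is not given by the labels and was not tested.

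None of the 34 genes passed the test between shRor1 and shCTL. Of the 34 genes, 33 passed the filter of at least 1 TPM in at least 3 libraries, and CA9 did not. The test was limma on log2(TPM + 1), with Benjamini-Hochberg adjustment over the 16554 genes that passed the filter. The fold changes are on that scale and understate the change of genes with few TPM. Adjusted p-values of the 33 genes ran from 0.984 to 0.994 (limma), 0 of 33 were called at 0.05, and the share called among all genes was 0.0%. At an unadjusted limma p below 0.05, 0 of the 33 genes remained, while 2.85% of all tested genes did. The groups overlapped in each of the 33 genes, whereas in 6.48% of all tested genes every shRor1 library was higher than every shCTL library and in 1.3% every one was lower. The log2 fold change was above 0 in 25 genes and below 0 in 8, with a median of 0.06, beside a median of 0.05 over all tested genes. After median ratio scaling, which takes out that shift, the split was 17 above and 16 below. In bulk RNA, a change in the share of cells with a transcript and a change in the amount per cell cannot be told apart.

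**Figure D1:**
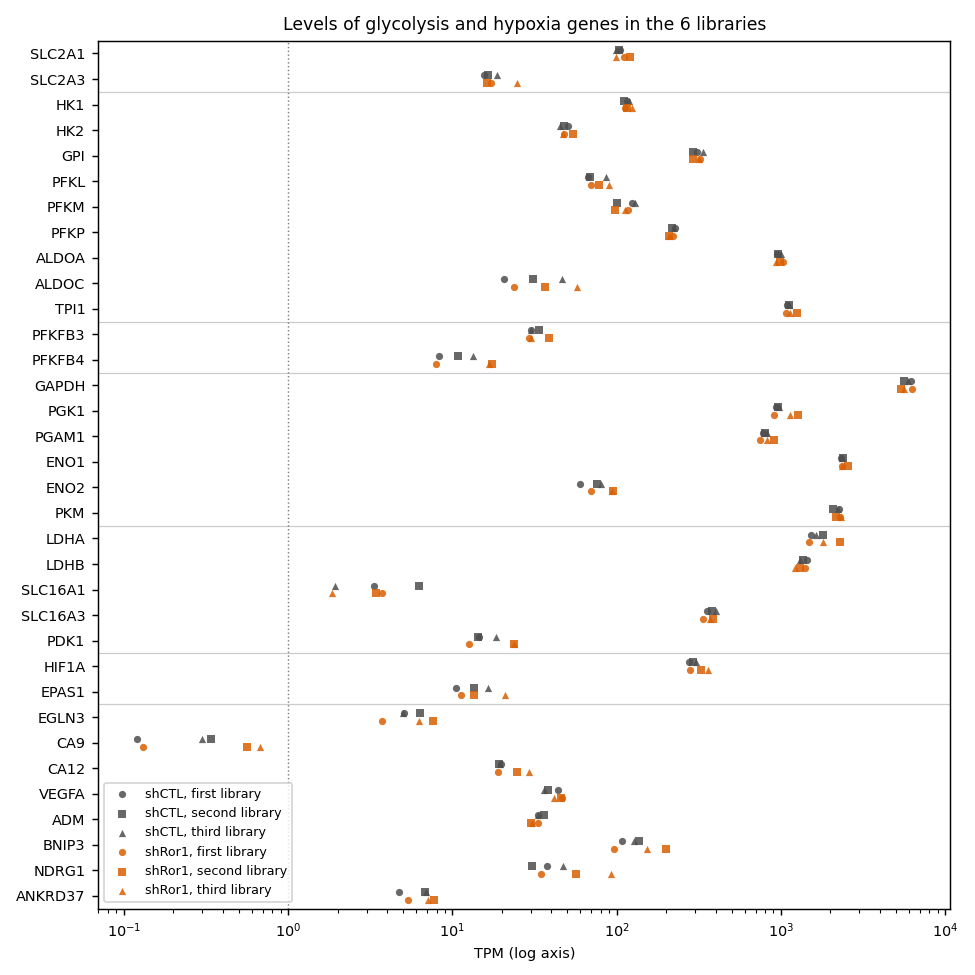
TPM of the 34 genes (log axis) in the 3 shCTL libraries (grey) and the 3 shRor1 libraries (orange), with a marker shape for the place of the library within its condition, horizontal lines between roles and a dotted line at 1 TPM. Levels span from CA9, below 1 TPM in all 6 libraries, to GAPDH, at 5391 TPM or above in all 6, and the groups overlap in every gene.

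Glucose enters through the transporters, and here the ubiquitous SLC2A1 (GLUT1) was the more abundant. SLC2A1 had 105, 103 and 99.4 TPM in shCTL and 111, 120.1 and 98.8 TPM in shRor1, so that 2 shRor1 libraries were above and 1 was below all controls. SLC2A3 (GLUT3), a transporter of high affinity, had 15.5, 16.4 and 18.7 TPM in shCTL and 17.2, 16.3 and 24.7 TPM in shRor1. In SLC2A3 only the third shRor1 library exceeded the controls. The summed TPM of its pseudogenes and of its close paralog SLC2A14 ranged from 2.40% to 17.4% of the SLC2A3 value, and reads may be divided between these copies. SLC2A1 held 85.8% ± 1.5 (SD, n = 3) of the summed TPM of the 2 transporters in shCTL and 84.9% ± 4.3 (SD, n = 3) in shRor1.

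Among the 9 genes of the upper steps, which turn glucose into triose phosphates, differences were small: 6 had a fold change above 0 and 3 below, with a median of 0.03 on the log2 scale. The hexokinases, which trap glucose in the cell, were led by HK1 with 115 ± 4.3 TPM in shCTL and 117 ± 5.5 TPM in shRor1 (SD, n = 3 each). HK2, the isozyme linked to tumors, had 47.7 ± 2.6 and 49.8 ± 3.8 TPM (SD, n = 3 each). The share of HK2 in the sum of both thus stayed near 29.3% in shCTL and 29.8% in shRor1. GPI, which makes fructose 6-phosphate, had 313 ± 22 and 311 ± 15 TPM (SD, n = 3 each), and none of its shRor1 libraries lay outside the range of the controls. Phosphofructokinase commits the sugar to glycolysis, and the platelet type PFKP made up 53.8% ± 2.6 of the 3 isozymes in shCTL and 53.1% ± 2.0 in shRor1 (SD, n = 3 each). PFKP itself varied least of all 34 genes, with a highest value only 1.08 times the lowest. It had 226, 217 and 224 TPM in shCTL and 221, 208 and 209 TPM in shRor1, with 2 shRor1 libraries below all controls. PFKL ran from 66.6 to 90.04 TPM and PFKM from 98.1 to 128 TPM over the 6 libraries. ALDOA, the main aldolase, had 964 ± 29 and 980.3 ± 51 TPM (SD, n = 3 each). By contrast, the minor aldolase ALDOC had 20.7, 31.03 and 46.3 TPM in shCTL and 23.7, 36.6 and 57.04 TPM in shRor1, a 2.23-fold range within the control group alone. Its log2 fold change of 0.24 (SE 0.36) was smaller than its error. TPI1, which interconverts the triose phosphates, had 1089, 1121 and 1122 TPM in shCTL and 1079, 1259 and 1127 TPM in shRor1.

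The PFK-2 enzymes make fructose 2,6-bisphosphate, the activator of phosphofructokinase. PFKFB3 had 30.3, 33.7 and 30.04 TPM in shCTL and 29.2, 38.7 and 30.3 TPM in shRor1, so that only the second shRor1 library exceeded the controls. PFKFB4 had 8.25, 10.9 and 13.4 TPM in shCTL and 7.95, 17.4 and 16.7 TPM in shRor1. For PFKFB4 the second and the third shRor1 library were above all controls and the first was below all of them. The log2 fold change of PFKFB4 was 0.30 (SE 0.29), with an interval from -0.39 to 0.98.

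The 6 genes of the lower steps, in which ATP is regained, together took 1.19% to 1.26% of all TPM in each library, more than any other role among the 34. GAPDH, often used as a reference gene, had 6146, 5602 and 5931 TPM in shCTL and 6248, 5391 and 5588 TPM in shRor1. Its first shRor1 library was above all controls and the other 2 were below them, so the groups overlapped. PGK1, which makes ATP from 1,3-bisphosphoglycerate (GRCh37 chrX:77166236-77384792, plus strand), had 927, 965 and 968 TPM in shCTL and 901, 1261 and 1127 TPM in shRor1. PGK1 varied 1.04-fold among the controls and 1.40-fold among the shRor1 libraries. PGAM1, the phosphoglycerate mutase, had 774, 803 and 816 TPM in shCTL and 748, 903 and 818 TPM in shRor1. The order was the one seen for PGK1, with the first shRor1 library lowest of all 6 and the second highest. ENO1, the common enolase, had 2318, 2380.3 and 2351 TPM in shCTL and 2361, 2566 and 2366 TPM in shRor1. The neuronal enolase ENO2 (GRCh37 chr12:7022909-7032861, plus strand), present at 3.0% of the enolase sum in shCTL and 3.4% in shRor1, had 59.6, 76.4 and 80.3 TPM in shCTL and 69.7, 95.2 and 93.5 TPM in shRor1. Its log2 fold change of 0.25 (SE 0.15) had an interval from -0.11 to 0.61. PKM, the pyruvate kinase, had 2190.3 ± 99.6 and 2259.7 ± 97.0 TPM (SD, n = 3 each).

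Pyruvate can be reduced to lactate by LDHA or kept from the mitochondria by PDK1. LDHA had 1521, 1789.9 and 1638 TPM in shCTL and 1489, 2281 and 1794 TPM in shRor1, again with the first shRor1 library lowest of all 6. LDHB, the subunit that favors the reverse reaction, had 1443, 1359 and 1297 TPM in shCTL and 1404, 1309 and 1213 TPM in shRor1. LDHA thus took 51.3%, 56.8% and 55.8% of the lactate dehydrogenase sum in shCTL and 51.5%, 63.5% and 59.7% in shRor1. The second and the third shRor1 library exceeded the controls in this share, and the first lay within them. The lactate exporter SLC16A3 (MCT4) had 377 ± 23 and 363 ± 26 TPM (SD, n = 3 each), about 99.0% of the sum with SLC16A1 (MCT1). SLC16A1 had 3.31, 6.23 and 1.94 TPM in shCTL and 3.74, 3.45 and 1.84 TPM in shRor1, a 3.21-fold range among the controls. PDK1, which inhibits pyruvate dehydrogenase (GRCh37 chr2:173420101-173473397, plus strand), had 14.4, 14.4 and 18.5 TPM in shCTL and 12.5, 23.6 and 23.6 TPM in shRor1. The log2 fold change of PDK1 was 0.27 (SE 0.24), with the 2 higher shRor1 libraries above and the first below all controls. The antisense transcript PDK1-AS1, which shares exon sequence with PDK1 on the opposite strand and is named after its values were seen, had 2.70, 3.27 and 3.15 TPM in shCTL and 2.97, 6.61 and 6.02 TPM in shRor1.

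**Figure D2:**
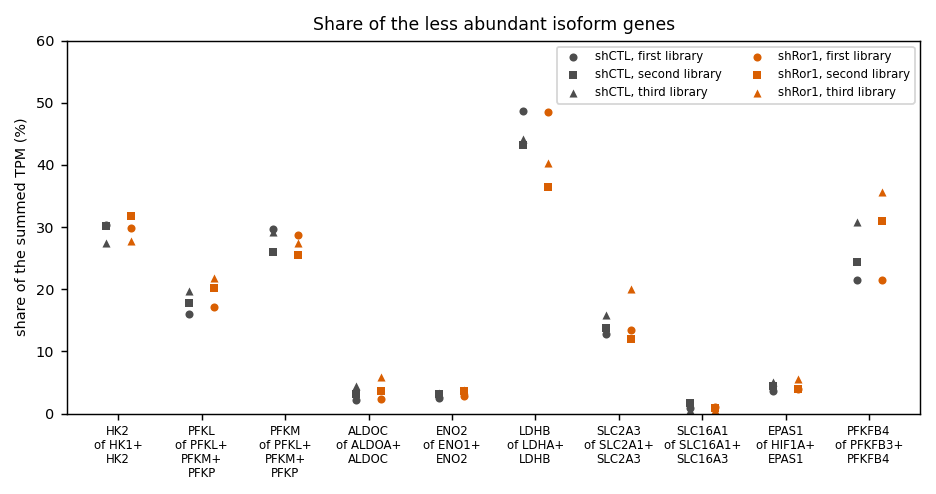
Share (%) of a less abundant gene in the summed TPM of its family, for the 3 shCTL (grey) and 3 shRor1 (orange) libraries, with a marker shape for the place of the library within its condition. The groups overlap in every family; LDHB is at 36.5% in the second shRor1 library and at 43.2% to 48.7% in the controls.

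Of the HIF alpha subunits, HIF1A was far more abundant than EPAS1 (HIF-2 alpha) and made up 95.6% ± 0.74 of their sum in shCTL and 95.5% ± 0.91 in shRor1 (SD, n = 3 each). HIF1A (GRCh37 chr14:62162231-62214977, plus strand) had 275, 293 and 303 TPM in shCTL and 278, 326 and 357 TPM in shRor1. Its log2 fold change was 0.14 (SE 0.10), and 2 shRor1 libraries were above all controls. The unnamed gene ENSG00000258964, which overlaps exons of HIF1A on the same strand and is mentioned for that reason after its values were seen, had 98.6, 88.8 and 72.8 TPM in shCTL and 95.9, 94.95 and 73.7 TPM in shRor1, so reads of the 2 genes may be divided between them. EPAS1 had 10.5, 13.6 and 16.4 TPM in shCTL and 11.3, 13.6 and 20.9 TPM in shRor1. Their partner ARNT had 20.8 ± 3.4 and 20.1 ± 1.5 TPM (SD, n = 3 each), and HIF3A stayed between 0.59 and 0.73 TPM and was not tested.

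Of the 5 tested HIF partners and regulators, only VHL had groups without overlap, a pattern that 6.48% of all tested genes showed in the same direction. VHL, the recognition subunit of the ubiquitin ligase that removes HIF alpha, had 51.2, 51.2 and 53.3 TPM in shCTL and 56.9, 64.5 and 62.3 TPM in shRor1. It was higher in 3 of 3 shRor1 libraries, with a log2 fold change of 0.23 (SE 0.08). By limma the unadjusted p was 0.0158 and the adjusted p 0.984, so VHL did not pass the test over all genes, of which 2.85% reached an unadjusted p below 0.05. The unadjusted limma p rose to 0.0529 after median ratio scaling, and to 0.0548, 0.0550 and 0.0524 without the first shCTL, the second shCTL and the second shRor1 library. EGLN1, the main HIF prolyl hydroxylase, had 25.8, 32.9 and 27.0 TPM in shCTL and 27.2, 39.9 and 35.0 TPM in shRor1. EGLN2 had 43.1 ± 1.7 and 40.0 ± 3.3 TPM, and HIF1AN, the asparaginyl hydroxylase of HIF, had 47.9 ± 2.8 and 49.5 ± 5.1 TPM (SD, n = 3 each).

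The 8 hypoxia targets covered oxygen sensing, pH control, vessel growth and mitochondrial turnover. The 7 tested ones had a median log2 fold change of 0.17, 6 above 0 and 1 below, beside a median of 0.05 over all tested genes. Without the second shRor1 library the median was 0.02, with 4 above 0 and 3 below, beside 0.06 over all genes. Without the first shRor1 library it was 0.30, beside 0.07. After median ratio scaling it was 0.12, beside 0.0006. NDRG1, a stress-responsive gene that hypoxia induces, had the largest fold change of the 33 genes with all 6 libraries. NDRG1 had 37.6, 30.4 and 47.1 TPM in shCTL and 34.5, 56.1 and 92.0 TPM in shRor1. Its log2 fold change of 0.56 (SE 0.33) had an interval from -0.20 to 1.32. Without the third shRor1 library it was 0.215, below the 0.230 of VEGFA, and without the first it was 0.91. BNIP3, a mitophagy receptor (GRCh37 chr10:133781188-133795471, minus strand), had 107, 137 and 128 TPM in shCTL and 96.5, 201 and 154 TPM in shRor1. Its first shRor1 library was the lowest of all 6 and its second the highest, a 2.08-fold range. The pseudogene BNIP3P1, which may share reads with BNIP3, had 25.0, 32.2 and 31.1 TPM in shCTL and 23.3, 59.0 and 41.2 TPM in shRor1. All pseudogenes of BNIP3 together came to 27.8% to 34.1% of its TPM. The log2 fold change of BNIP3 was 0.22 alone and 0.254 when summed with them, and how reads were divided between the copies was not tested.

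CA9 and CA12 are carbonic anhydrases of the cell surface that help to export acid. CA9, a strongly HIF-dependent gene, had 0.12, 0.34 and 0.30 TPM in shCTL and 0.13, 0.56 and 0.67 TPM in shRor1, too low to pass the filter. CA12 (GRCh37 chr15:63613577-63674045, minus strand) had 19.7, 19.2 and 19.6 TPM in shCTL and 18.8, 24.6 and 29.1 TPM in shRor1. The controls of CA12 differed by 1.02-fold and the shRor1 libraries by 1.54-fold. CA12 had the smallest p-value of the 33 genes, with a log2 fold change of 0.27 (SE 0.15) and an adjusted p of 0.984 (limma). VEGFA, the growth factor for vessels, had 44.1, 38.3 and 36.2 TPM in shCTL and 46.7, 46.1 and 41.3 TPM in shRor1. Unlike CA9 and CA12, VEGFA was highest in the first shRor1 library. ADM, which encodes the vasodilator adrenomedullin, had 33.3, 36.2 and 33.3 TPM in shCTL and 33.3, 29.9 and 30.6 TPM in shRor1. It was the only tested hypoxia target with a fold change below 0 (-0.13, SE 0.08, log2 scale). EGLN3, the hydroxylase that HIF itself induces, had 5.04, 6.34 and 4.98 TPM in shCTL and 3.74, 7.62 and 6.29 TPM in shRor1. ANKRD37, a small ankyrin repeat gene, had 4.72, 6.77 and 6.90 TPM in shCTL and 5.38, 7.75 and 7.06 TPM in shRor1.

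Gene by gene, the exact permutation test (two-sided, 3 against 3 libraries) has a smallest possible p of 0.1. Its smallest value among the 34 genes was 0.2, for PFKP and VEGFA. Over the 6 libraries, the highest TPM of a gene was at the median 1.31 times the lowest for the 33 tested genes and 1.38 times for all tested genes above 0. The widest ranges were those of CA9 (5.58-fold), SLC16A1 (3.39-fold), NDRG1 (3.02-fold), ALDOC (2.75-fold), PFKFB4 (2.18-fold), BNIP3 (2.08-fold) and EGLN3 (2.04-fold).

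**Figure D3:**
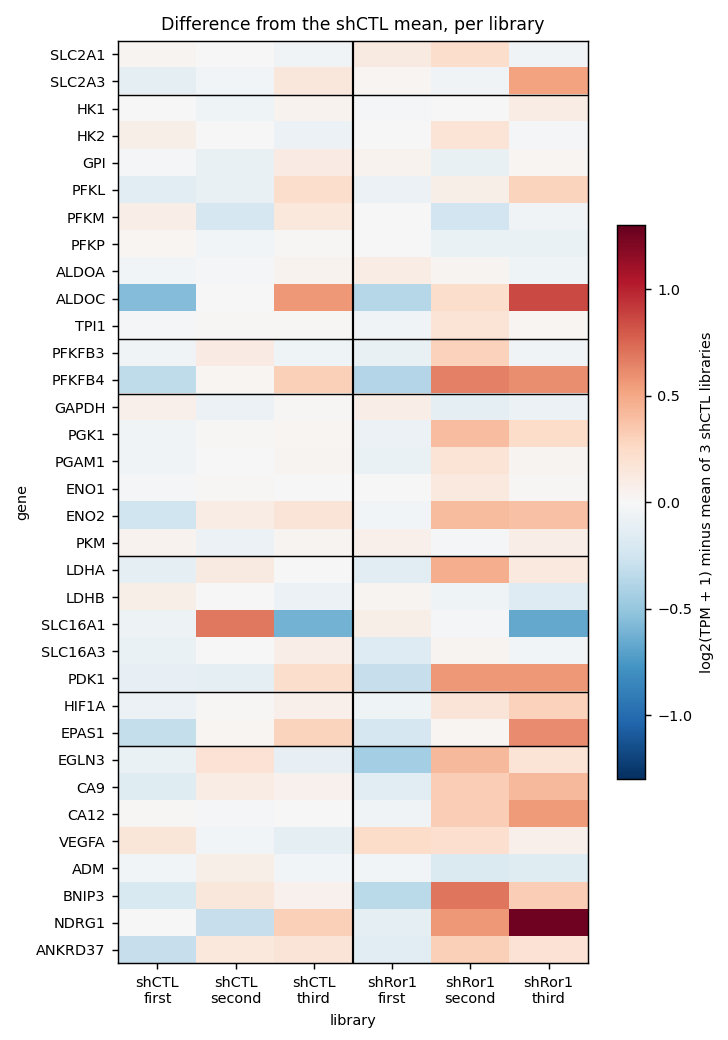
Difference of log2(TPM + 1) from the mean of the 3 shCTL libraries (color) for each of the 34 genes (rows, grouped by role) in each of the 6 libraries (columns). The second and the third shRor1 library show PDK1, CA12, BNIP3 and NDRG1 above the control mean, and the first shRor1 library shows these 4 genes below it.

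The 3 shRor1 libraries did not behave alike for these genes. In the first shRor1 library, 5 of the 33 tested genes were above all shCTL libraries and 11 below, beside 24.4% and 16.6% of all tested genes. In the second, 18 were above and 4 below, beside 34.1% and 22.6% of all genes. In the third, 18 were above and 7 below, beside 47.4% and 17.6%. Of the 7 tested hypoxia targets, 1, 6 and 4 were above all controls in the first, the second and the third library. The first library held the lowest shRor1 value in 20 of the 33 genes and in 6788 of all 16554. The 33 genes took 1.91% to 1.96% of all TPM in the shCTL libraries and 1.96%, 2.04% and 1.96% in the shRor1 libraries. The first shRor1 library also had the lowest ROR1 level and the lowest mitochondrial mRNA share of the 6 libraries, and the part of these differences in the result was not tested.

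Each library was left out in turn, and the count of genes at an unadjusted p below 0.05 moved most without the first shRor1 library. Then 8 of the 33 genes reached that limit by limma, each of them higher in shRor1, beside 7.74% of all tested genes that were higher and 2.65% that were lower. They were PGK1, ENO2, PDK1, PFKFB4, HIF1A, CA12, BNIP3 and NDRG1, and 0 of them passed the adjustment over all genes, with a smallest adjusted p of 0.440. The log2 fold changes were 0.56 (SE 0.13) for PDK1, 0.44 (SE 0.10) for CA12, 0.32 (SE 0.08) for PGK1, 0.51 (SE 0.15) for BNIP3 and 0.91 (SE 0.25) for NDRG1. LDHA had a log2 fold change of 0.30 (SE 0.13), and its interval reached from -0.01 to 0.60. With these 2 shRor1 libraries against the 3 controls, the groups did not overlap in 12 genes that were higher and in 3 that were lower (PFKP, GAPDH and ADM), beside 21.4% and 7.83% of all tested genes. This fit rests on 2 libraries of shRor1, and the library left out was singled out after its values were seen.

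**Figure D4:**
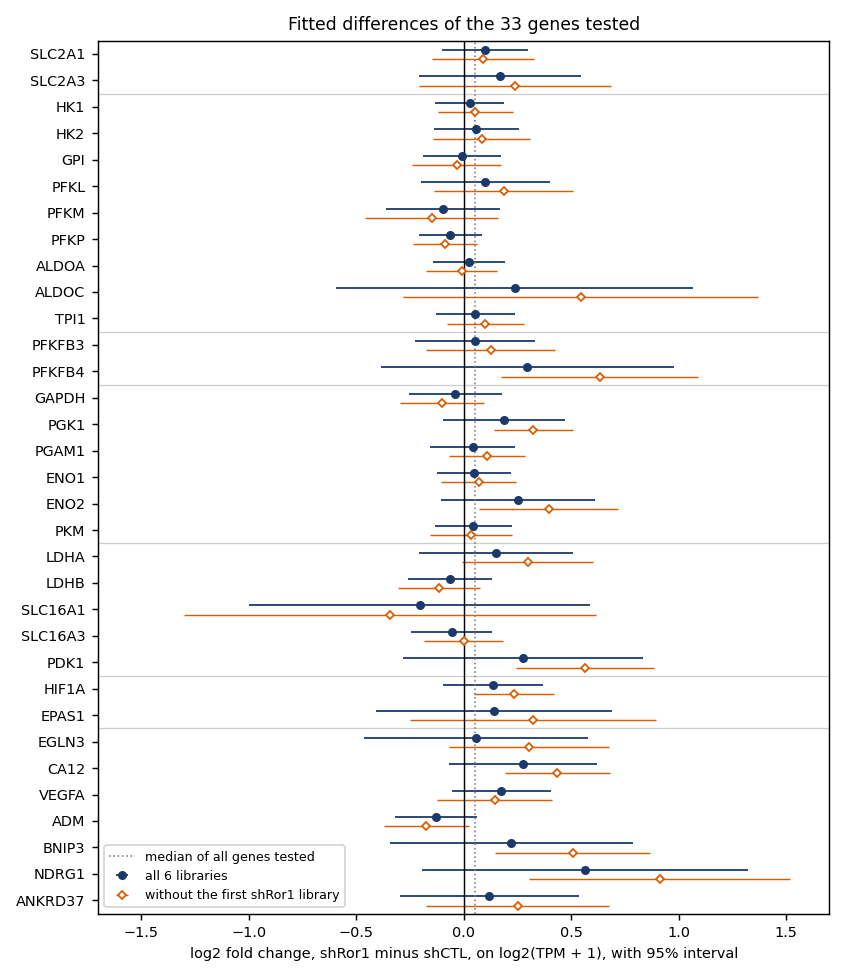
Log2 fold change of shRor1 against shCTL on the log2(TPM + 1) scale with its 95% interval for the 33 tested genes, with all 6 libraries (filled blue points) and without the first shRor1 library (open orange points); the dotted line is the median of all tested genes with all libraries. With all libraries every interval includes 0; without the first shRor1 library the intervals of 8 genes, among them PGK1, PDK1 and CA12, lie above 0.

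Genes of the pathway outside the 34 were taken from 5 lists with 64 genes in all, not all of which passed the filter. Of those tested, only VHL reached an unadjusted p below 0.05 (limma), a limit that 2.85% of all tested genes reached. Of the 23 other hypoxia response genes tested, 20 had a fold change above 0, with a median of 0.21 on the log2 scale beside 0.05 for all genes. Among these 23 genes, 0 were called and 0 had groups without overlap. Over all tested genes, 6.48% were higher without overlap and 1.3% lower. Without the third shRor1 library the median of the 23 genes was 0.10, beside 0.03 for all genes. In the first shRor1 library, 1 of these 23 genes was above all controls and 6 below, beside 24.4% and 16.6% of all tested genes. In the second, 15 were above and 1 below (34.1% and 22.6% of all genes), and in the third 18 were above and 0 below (47.4% and 17.6%). Without the first shRor1 library, 13 of the 23 reached an unadjusted p below 0.05 by limma, all higher and 0 after adjustment, beside 7.74% of all tested genes that were higher and 2.65% that were lower. The following 2 of the 13 are named after their values were seen. P4HA1, a collagen prolyl hydroxylase, had 46.5, 51.8 and 50.5 TPM in shCTL and 45.1, 84.03 and 75.6 TPM in shRor1. KDM3A, a histone demethylase, had 24.0, 29.7 and 27.8 TPM in shCTL and 22.4, 40.0 and 39.0 TPM in shRor1. Both genes had their lowest value of the 6 libraries in the first shRor1 library. ACGTG or GCGTG was found upstream of 18 of the 20 genes of this list with a RefSeq promoter (90.0%), beside 47.4% of all 27305 genes with one. Counted by gene in the same way, the 34 members had it in 25 of the 30 with a promoter (83.3%). Counted by window, as was done for the members above, this list had it in 24 of 27 windows (88.9%), beside 43.2% of all windows.

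The remaining lists held genes next to glycolysis. Of 15 other genes in or near glycolysis, mostly isozymes of liver, muscle or testis, 4 passed the filter. Of these, 3 had a fold change above 0 and 1 below, with a median of 0.04. The 11 genes listed for pyruvate transport, its entry into the mitochondria, and pyruvate dehydrogenase with its regulators had a median of 0.02, with 8 above 0 and 3 below. The 6 tested genes of the pentose phosphate pathway and gluconeogenesis had a median of -0.08, with 2 above 0 and 4 below. In these 3 lists 0 genes were called and 0 reached an unadjusted p below 0.05 by limma, beside 2.85% of all tested genes. Without the first shRor1 library, PDK4 reached that limit higher in shRor1, and PCK2 and TKT reached it lower. These are named after their values were seen, and 0 passed the adjustment. In that fit 7.74% of all tested genes were higher and 2.65% lower at the same limit.

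**Figure D5:**
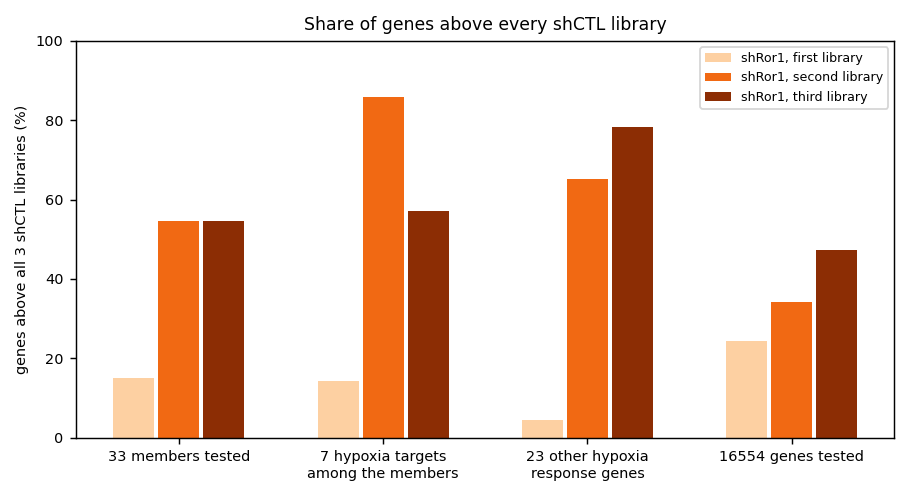
Share (%) of genes whose TPM in a shRor1 library lies above all 3 shCTL libraries, for the 33 tested genes, the 7 tested hypoxia targets among them, 23 other hypoxia response genes and all 16554 tested genes, with a bar for each shRor1 library. The first shRor1 library is at 14.3% for the hypoxia targets and at 24.4% for all genes, while the second reaches 85.7% for the targets and 34.1% for all genes.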

How the data were processed

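RNA from 6 MDA-MB231 libraries (3 shCTL, 3 shRor1) was sequenced with a stranded kit. Reads were mapped by the authors with STAR (GRCh37, Ensembl 73), who estimated gene abundances with RSEM 1.2.5, which divides reads shared between genes, and tested them with edgeR. The table deposited by the authors is named for expected counts, but its values are TPM with 2 decimals that sum to the same total in each library, so no count model was fitted. The number of columns of values left unused was 0.

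Symbols were matched for 55022 of 57445 identifiers, and gene spans came from GENCODE 44 mapped to GRCh37. Genes that reached 1 TPM in 3 or more libraries (16554) were tested by limma 3.58.1 in R 4.3.3 on log2(TPM + 1), with a mean-variance trend, the condition as the only term and Benjamini-Hochberg adjustment at 0.05. Intervals are at 95%. The fit was tested on simulated data. The members and all gene lists were chosen with earlier results of these data known. Named were all members, the HIF partners and regulators, ROR1, other list genes at an unadjusted p below 0.05, and copies of a member with a summed level of at least 5% of it in some library. Other names are marked as chosen after their values were seen. The alternatives were a pseudocount of 0.1, no filter, a mean of at least 5 TPM, quantile normalization, median ratio scaling, no trend, members summed with pseudogenes, and each library left out in turn.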

Additional observations from a re-analysis of the deposited data

How the results depend on the processing

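In all 14 fits, the reported one and 13 alternatives, 0 members were called, and 15 of the 33 tested members kept the sign of their fold change throughout. Over all genes, 0 to 1 were called when a library was left out; the 1 was RPL39P3, without the third shRor1 library, and is named after its values were seen. Leaving out a library gave 0 to 8 members at an unadjusted p below 0.05, 1 to 15 members without overlap and a median log2 fold change of the members from 0.02 (without the second shRor1 library) to 0.13; the highest values were those without the first shRor1 library. Over all 16554 genes, 278 to 1720 reached an unadjusted p below 0.05 in the same fits, and in the fit with 15 members 21.4% were higher without overlap and 7.83% lower. Under quantile normalization 1 member had no overlap (PFKP, lower), and under median ratio scaling 1 (HK1, lower). For the remaining alternatives the share of all genes without overlap was not computed. In the reported fit it was 6.48% higher and 1.3% lower.

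The following log2 fold changes changed sign. Median ratio scaling gave -0.034 for HK1, -0.001 for HK2, -0.037 for ALDOA, -0.007 for TPI1, -0.008 for PFKFB3, -0.019 for PGAM1, -0.013 for ENO1, -0.016 for PKM and -0.017 for HIF1AN. Quantile normalization gave 0.167 for GAPDH and -0.036 for EGLN3. When single libraries were left out, the ranges were -0.011 to 0.276 for SLC2A3, -0.010 to 0.054 for HK1, -0.002 to 0.097 for HK2, -0.055 to 0.046 for GPI, -0.010 to 0.064 for ALDOA, -0.072 to 0.543 for ALDOC, -0.010 to 0.101 for TPI1, -0.072 to 0.126 for PFKFB3, -0.101 to 0.005 for GAPDH and -0.027 to 0.109 for PGAM1. They were -0.010 to 0.297 for LDHA, -0.513 to 0.136 for SLC16A1, -0.095 to 0.322 for EPAS1, -0.128 to 0.303 for EGLN3, -0.018 to 0.506 for BNIP3, -0.032 to 0.251 for ANKRD37, -0.119 to 0.090 for ARNT and -0.022 to 0.124 for HIF1AN. VHL lost its unadjusted p below 0.05 under median ratio scaling and without the first shCTL, the second shCTL or the second shRor1 library. The cause was not tested.

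No paired analysis was possible because replicate numbers are missing from the headers. TPM keeps no depth, and the columns cannot be tied to the mapped reads that the study lists by replicate. Counting error was therefore not set against the spread between libraries, and 3 libraries per condition limit what the test can detect.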
